A study of Mus musculus with 12 samples.

Results

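Osteosarcoma, a malignant tumour whose cells lay down bone matrix, was compared with leiomyosarcoma, a malignant soft-tissue tumour named for smooth muscle, in 4 mouse tumours of each kind. These 8 arrays were all the tumour arrays of a series of 12, and were taken by the tumour name in the sample labels. The other 4 arrays, 2 of normal bone marrow and 2 of normal muscle, entered the normalisation, the filter on detection and the shared estimate of spread, and no comparison. The genotype label of every sample, tumour and normal, was p53 flow/flox, the animals had no treatment and were followed until tumours or limb paralysis appeared, and the tissue was fresh frozen. Neither a recombinase, the cell type in which p53 might have been deleted, the age nor the sex of the animals was given. The labels do not say that each tumour came from a separate animal, so p-values measure the spread between these samples. The sample titles carry a different number for each tumour, while a muscle and a bone marrow array share a number. Whether such a number stands for an animal is not stated. The purpose was to find which genes tell the bone tumour from the soft-tissue tumour when both arose on the same floxed p53 background. Trp53 itself, Runx2 and Spp1 have no probe in the annotation and were not analysed here.

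Osteoblasts, the bone-forming cells, come from mesenchymal progenitors under the transcription factors Runx2 and Sp7. They secrete type I collagen and a set of matrix proteins, and mineralise that matrix with phosphatases that release phosphate and destroy the inhibitor pyrophosphate. Osteoclasts, which resorb bone, descend from the monocyte lineage and need the cytokine RANKL. Smooth muscle cells are known by actin, calponin, transgelin and smooth muscle myosin, switched on by myocardin acting with serum response factor.

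The promoter of Bglap, the gene of osteocalcin, is shown because its RUNX site is a textbook element of osteoblast transcription, beside that of Ibsp, the gene with the largest increase in osteosarcoma, and those of Twist2 and Crabp1, which were at background in osteosarcoma. Sequences are from RefSeq (GRCm38.p6), the 250 bases before each gene's start, written 5′ to 3′ on the gene's strand, and capitals mark matches to the RUNX motif TGTGGT on either strand.
Bglap, chr3:88384467-88384716, minus strand: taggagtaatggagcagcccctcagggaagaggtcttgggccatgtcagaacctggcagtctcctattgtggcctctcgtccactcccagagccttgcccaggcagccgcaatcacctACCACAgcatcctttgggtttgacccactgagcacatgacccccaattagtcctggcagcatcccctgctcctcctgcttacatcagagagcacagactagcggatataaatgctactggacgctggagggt
Ibsp, chr5:104299037-104299286, plus strand: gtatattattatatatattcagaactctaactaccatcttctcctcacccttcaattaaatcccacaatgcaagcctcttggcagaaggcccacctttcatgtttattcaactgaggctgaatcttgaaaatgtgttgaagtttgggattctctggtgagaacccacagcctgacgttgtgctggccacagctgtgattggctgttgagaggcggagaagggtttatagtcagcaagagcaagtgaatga
Twist2, chr1:91801211-91801460, plus strand: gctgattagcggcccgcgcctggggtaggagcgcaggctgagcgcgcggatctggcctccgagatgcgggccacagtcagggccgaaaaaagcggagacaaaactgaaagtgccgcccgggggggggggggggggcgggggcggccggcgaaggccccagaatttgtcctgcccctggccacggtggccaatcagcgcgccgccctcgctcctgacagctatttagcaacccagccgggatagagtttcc
Crabp1, chr9:54764498-54764747, plus strand: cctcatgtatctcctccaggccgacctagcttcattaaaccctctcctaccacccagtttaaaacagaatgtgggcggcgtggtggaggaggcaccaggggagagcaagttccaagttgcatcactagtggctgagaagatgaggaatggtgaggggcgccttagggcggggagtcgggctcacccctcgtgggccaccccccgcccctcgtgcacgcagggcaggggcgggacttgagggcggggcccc
Bglap held 1 match, which begins at position -132 from the start, and the other 3 windows held none of these letters. Over the window from 250 bases before to 50 after the start, the motif was in 13.0% of the 300 promoters of genes called higher in osteosarcoma and in 12.57% of the 374 of genes called lower, against 12.88% of the 9458 promoters of genes tested and 16.92% of all 27025. The shares of called genes lay near that of the genes tested, so the letters alone did not mark the called genes. The CArG box, the site of serum response factor, was in 1.333% of promoters called higher and 1.872% of those called lower, against 1.501% of those tested.

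Signals are given as log2 values after background correction and normalisation between arrays, on which 1 unit is a change of 2-fold, and values are listed in the order of replicates 1 to 4. A gene was called when limma gave a Benjamini-Hochberg adjusted p under 0.05 and a difference of at least 1. Errors of differences are the standard errors of that fit (n = 4 tumours each), whose spread also takes in the normal arrays. A gene that varies between normal arrays of a tissue thus has a larger error than the tumours alone would give. Xist, for example, was at 4.74 and 10.32 in muscle, and Cdkn1a at 9.18 and 13.58. Between 35.9% and 40.0% of the 45281 probes were detected on a tumour array, and 11754 genes were tested. Gene signals correlated at 0.916 to 0.956 among osteosarcomas and 0.946 to 0.974 among leiomyosarcomas, against 0.883 to 0.915 between the tumours, across genes, which are not independent. On the first principal component of the 8 tumours, with 45.88% of the variance, the osteosarcomas lay between 31.2 and 51.3 and the leiomyosarcomas between -44.4 and -38.0. Osteosarcoma 2 stood apart at -59.4 on the second component (16.95%), where the other 7 lay between -5.95 and 29.3. The constant subtracted from each array as background was 99.3 to 110.1 on the osteosarcomas and leiomyosarcomas 3 and 4, and 83.9 and 84.2 on leiomyosarcomas 1 and 2, so each result was also fitted with the background level as a block. No osteosarcoma had the low constant, so the difference with the block is osteosarcoma minus leiomyosarcomas 3 and 4 alone. Where a call ended with the block, background level and the loss of leiomyosarcomas 1 and 2 from the difference cannot be told apart. The normal arrays had low constants too, 80.8 to 84.0. Between leiomyosarcomas 3 and 4 and leiomyosarcomas 1 and 2, limma gave 0 genes with an adjusted p under 0.05. At an unadjusted p under 0.05 it gave 605 of 11754. So few arrays cannot show that these sets are alike. In bulk tumour RNA, fewer cells of a type and less RNA per cell cannot be told apart.

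In osteosarcoma 389 genes were called higher, 3.31% of those tested, and 510 lower, 4.34%, which makes 899 genes or 7.65%. The count of calls in each gene list below is to be read beside these shares. The median difference over all genes was 0.0056. Differences of at least 4 numbered 25 among the genes called higher and 14 among those called lower. The arrays of the 2 tumours did not overlap for 796 of the 899 called genes, while they did not overlap for 17.7% of all genes tested. The calls rest on the same values, so the lack of overlap is no separate evidence for them. Among the genes called higher, 61 were not detected on any leiomyosarcoma array, and among those called lower, 61 were not detected on any osteosarcoma array. For such genes a fold is a lower bound, the mean of the tumour with signal over the lowest signal still detected on the other tumour's arrays, and is written "at least". With the background level as a block 271 genes were called higher and 413 lower, and without osteosarcoma 2 the counts were 473 and 468. With the mean of a gene's detected probes in place of the brightest, the calls of Col24a1, Col27a1, Ddit4l, H2-D1, H2-K1, Kcnma1, Lamc1, Lyz1, Nefm, Pgam1, Reck and Trpv4 ended. Other called differences were smaller with the mean, among them 5.71 for Sp7, 4.12 for Bglap, 2.65 for Alx4, 1.33 for Tbx2, 2.81 for Fgfr2 and 3.98 for Xist, and -3.49 for Acpp, -1.62 for Tbx3, -2.65 for Wnt7b and -1.55 for Wnt5a.

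**Figure D1:**
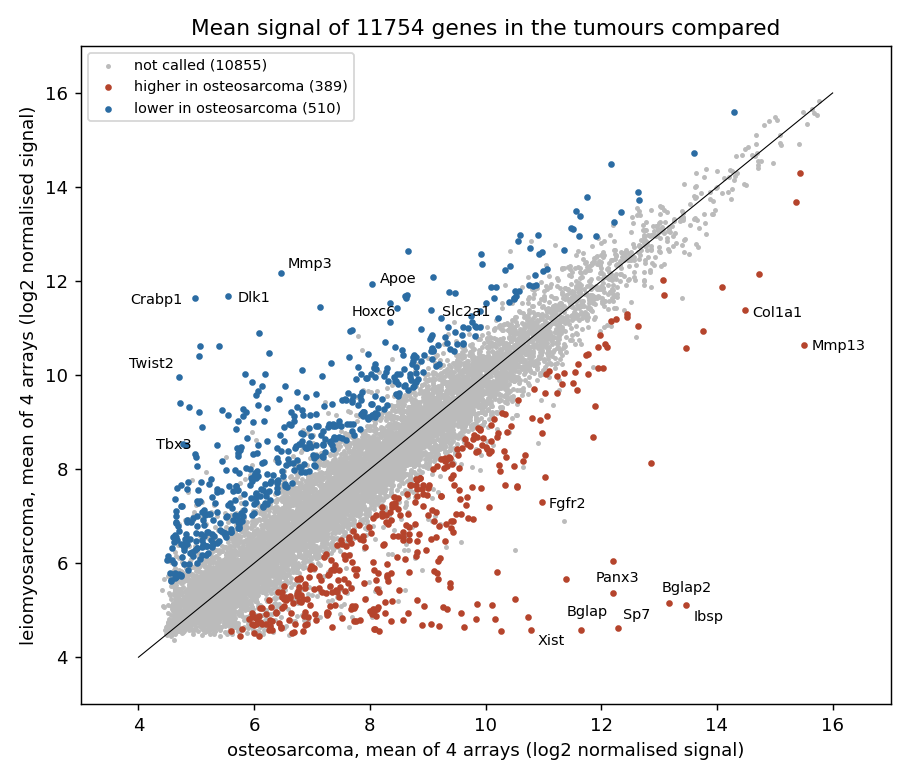
Mean log2 normalised signal of each of 11754 genes over 4 osteosarcomas (horizontal axis) and 4 leiomyosarcomas (vertical axis), with the 389 genes called higher in osteosarcoma in red, the 510 called lower in blue and the line of equal signal in black. Bone genes such as Ibsp, Bglap2 and Sp7 sit near 5 on the leiomyosarcoma axis, while Crabp1, Dlk1 and Twist2 sit near 5 on the osteosarcoma axis.

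The 4 largest increases in osteosarcoma, in Ibsp, Bglap2, Sp7 and Bglap, were in genes of the osteoblast. Of 14 genes of bone matrix and mineralisation that could be tested, 9 were called higher and 1 lower in osteosarcoma, with a median difference of 2.54, against 3.31% and 4.34% of all genes. Sp7, or osterix, the transcription factor without which no osteoblast forms, had 12.39, 12.45, 12.40 and 11.93 in osteosarcoma, against 4.48, 4.55, 4.70 and 4.80 in leiomyosarcoma, where no array detected it. The 4 osteosarcomas lay close together and far above every leiomyosarcoma, a difference of 7.66 ± 0.17 (adjusted p = 1.83e-10), at least 135-fold, and a further probe differed by 3.76. Pth1r, the receptor of parathyroid hormone, gave 9.96, 10.30, 11.50 and 10.25 in osteosarcoma, against 6.40, 4.96, 4.81 and 4.79 in leiomyosarcoma. The groups were apart by 5.26 ± 0.39 (adjusted p = 8.92e-06), with leiomyosarcoma 1 the highest of its group. Dlx3, a homeodomain factor of osteoblasts and teeth, rose by 3.06 ± 0.37 (adjusted p = 0.000453), and Mef2c, a factor shared by muscle and bone, by 1.93 ± 0.30 (adjusted p = 0.00198). These 4 were the genes called among 11 osteoblast transcription factors and receptors, none of which was called lower and whose median difference was 0.15. Twist1, which holds back osteoblast maturation, was at 7.42 in osteosarcoma and 7.75 in leiomyosarcoma on average, and Cbfb, the partner subunit of RUNX factors, at 10.94 and 10.79.

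Among matrix genes, Ibsp, bone sialoprotein, which binds mineral, stood at 14.50, 9.58, 14.49 and 15.30 in osteosarcoma, against 4.78, 5.44, 5.05 and 5.21 in leiomyosarcoma. Osteosarcoma 2 was far below the other 3 and still above every leiomyosarcoma, and the difference was 8.35 ± 1.01 (adjusted p = 0.000466), or 9.64 without that tumour and 7.74 without osteosarcoma 4. Its other 2 probes differed by 7.76 and 8.07. Bglap, osteocalcin, was at 13.18, 14.16, 9.47 and 9.79 in osteosarcoma, against 4.59, 4.62, 4.56 and 4.53 in leiomyosarcoma, where it was not detected. Bglap2 followed the same order, with 14.76, 15.30, 11.14 and 11.46 in osteosarcoma, against 5.20, 5.08, 5.34 and 4.99 in leiomyosarcoma. For both, osteosarcomas 1 and 2 were high and osteosarcomas 3 and 4 lower, with no overlap with leiomyosarcoma. Bglap differed by 7.08 ± 0.86 (adjusted p = 0.000485), at least 86.7-fold, and by 6.24 to 7.80 without osteosarcoma 2, 3 or 4. Bglap2 differed by 8.01 ± 0.80 (adjusted p = 9.97e-05), and by 7.30 and 8.69 without osteosarcoma 2 or 3. The osteocalcin genes are near-identical copies whose signals a probe may share, and a further Bglap probe differed by 1.16, so their results are not separate.

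The enzymes of mineralisation were also higher. Alpl, the phosphatase that destroys pyrophosphate, was at 11.86, 9.48, 12.40 and 11.80 in osteosarcoma, against 5.49, 5.74, 5.53 and 5.87 in leiomyosarcoma. Osteosarcoma 2 was again the lowest, and the difference of 5.73 ± 0.49 (adjusted p = 3e-05) was 6.36 without it. Phospho1, which releases phosphate inside matrix vesicles, differed by 3.03 (adjusted p = 0.000271), at least 6.92-fold, and Smpd3, a sphingomyelinase needed for bone mineral, by 4.39 (adjusted p = 0.000709), or 5.04 without leiomyosarcoma 1, the highest of its group at 7.75. Ifitm5, a membrane protein of osteoblasts, differed by 4.72, Omd, osteomodulin, by 2.05 and Sparc, osteonectin, by 1.68 (adjusted p = 3.22e-05, 0.00415 and 0.0161). Ank, which carries pyrophosphate out of the cell, was the exception in the list: it had 10.50, 10.47, 9.67 and 10.73 in osteosarcoma, against 11.71, 12.05, 13.16 and 12.04 in leiomyosarcoma. Every osteosarcoma was below every leiomyosarcoma, and Ank fell by 1.90 ± 0.35 (adjusted p = 0.00566).

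Genes of the osteocyte, the cell buried in finished bone, did not pass the test in the direction of bone. Dmp1 was at 5.66, 4.82, 4.98 and 4.63 in osteosarcoma, against 4.74, 4.92, 4.81 and 4.65 in leiomyosarcoma, and was detected on 1 osteosarcoma array and on no leiomyosarcoma array. Phex was detected in osteosarcomas 1 and 2 alone, at 6.16 and 5.97, with 4.74 and 4.44 in the other 2 and 4.44 to 4.78 in leiomyosarcoma (adjusted p = 0.178). Of 4 osteocyte genes tested, 0 were called higher, and 1, Pdpn, was called lower in limma, while Phex was the 1 gene above 0 with an unadjusted p under 0.05. Pdpn, podoplanin, a mucin-like protein of early osteocytes, fibroblasts and lymphatic vessels, had 8.73, 6.88, 9.08 and 7.47 in osteosarcoma, against 11.84, 12.38, 11.61 and 11.92 in leiomyosarcoma. It fell by 3.90 ± 0.43 (adjusted p = 0.000218), with wide spread among the osteosarcomas.

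**Figure D2:**
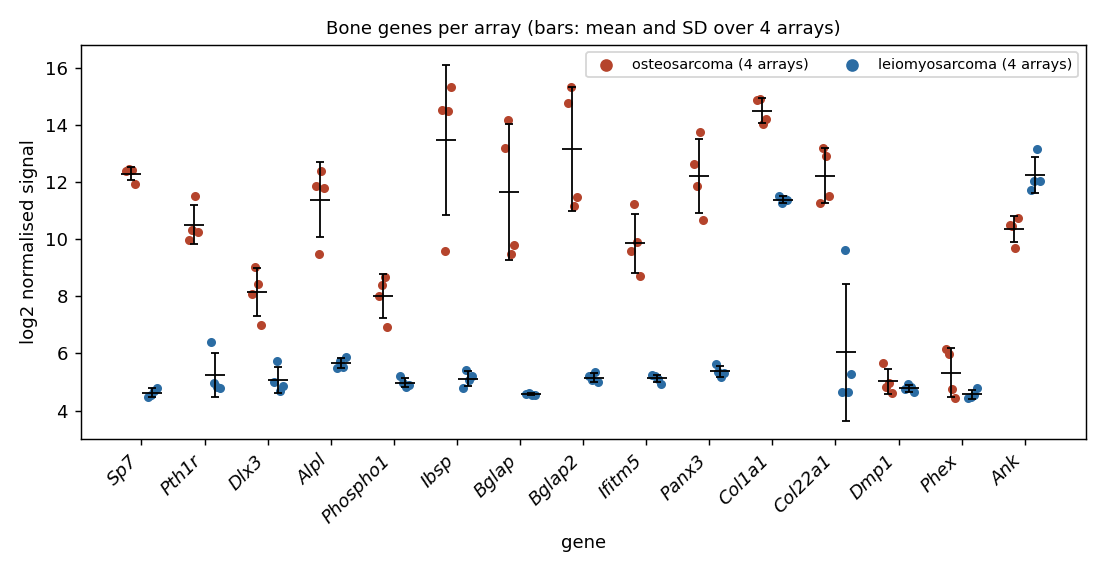
Log2 normalised signal (vertical axis) of 15 bone genes on each of 4 osteosarcoma arrays (red, left of each pair) and 4 leiomyosarcoma arrays (blue, right), with black bars for the mean and SD. Sp7 is tight within both tumours, Ibsp is low in osteosarcoma 2 at 9.58, Bglap and Bglap2 split the osteosarcomas into high and low pairs, and Dmp1 and Phex overlap between the tumours.

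Both chains of type I collagen, on which bone mineral forms, were higher in osteosarcoma. Col1a1 was at 14.87, 14.88, 14.04 and 14.19 in osteosarcoma, against 11.52, 11.26, 11.39 and 11.36 in leiomyosarcoma, and Col1a2 at 12.30, 12.48, 11.29 and 11.48, against 9.64, 9.28, 9.36 and 9.05. Neither chain overlapped between the tumours, and they differed by 3.11 ± 0.44 and 2.56 ± 0.36 (adjusted p = 0.00117 and 0.00119). Of 18 genes listed as fibrillar and network collagens, 5 were called higher and 2 lower, with a median of 0.49. Col22a1, a collagen of the muscle-tendon junction, had 11.27, 13.17, 12.89 and 11.50 in osteosarcoma, against 4.64, 9.61, 4.65 and 5.27 in leiomyosarcoma. Leiomyosarcoma 2 alone had a signal near that of osteosarcoma, and the difference of 6.17 ± 0.99 (adjusted p = 0.00234) was 7.35 without it and 7.25 with the background block. Col5a2 (2.01 ± 0.40) and Col24a1 (1.25), a fibrillar collagen of bone, were the other 2 called higher. Further probes of Col5a2 differed by 0.15 and 0.98, and the mean of its detected probes by 1.05. Called lower were Col18a1 (-1.70 ± 0.37), the source of endostatin, and Col27a1 (-1.06 ± 0.32). The call of Col27a1 ended without any 1 of 7 arrays, all but leiomyosarcoma 2 (adjusted p 0.0504 to 0.128). Col3a1, the collagen of soft connective tissue, averaged 9.28 in osteosarcoma and 10.65 in leiomyosarcoma (adjusted p = 0.288).

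Of 19 genes that fold, trim or crosslink collagen, 7 were called higher in osteosarcoma, 12 were not called and 0 were called lower in limma, with a median of 0.78. At an unadjusted p under 0.05, 0 were lower. Creb3l1, the stress-sensor transcription factor that drives type I collagen in osteoblasts, had 7.89, 7.64, 7.98 and 7.49 in osteosarcoma, against 5.39, 4.86, 4.94 and 5.18 in leiomyosarcoma, a difference of 2.66 ± 0.20 (adjusted p = 8.48e-06). It did not overlap between the tumours. P3h1 and Crtap, which form the complex that hydroxylates proline in type I collagen, rose by 1.51 ± 0.24 and 1.52 ± 0.23 (adjusted p = 0.00257 and 0.00161), and P4ha2, a prolyl 4-hydroxylase subunit, by 1.48. Plod2, a lysyl hydroxylase, rose by 2.15 ± 0.48 (adjusted p = 0.0142), or 1.57 without leiomyosarcoma 2, and its call ended with the background block (adjusted p = 0.109). Serpinh1, a collagen chaperone, and Bmp1, which trims procollagen, were called at 1.14 and 1.38. Both calls ended with the block (adjusted p = 0.0936 and 0.109) and without any of 6 or more single arrays (adjusted p 0.0546 to 0.119).

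Other matrix genes went both ways. Fmod, fibromodulin, a proteoglycan of tendon, had 10.38, 10.71, 10.04 and 9.28 in osteosarcoma, against 4.75, 6.41, 4.60 and 4.71 in leiomyosarcoma, a difference of 4.99 ± 0.43 (adjusted p = 3.22e-05). Leiomyosarcoma 2 was again the highest of its group. Fbln2, fibulin 2, stood at 9.59, 6.88, 9.62 and 8.46 in osteosarcoma, against 12.02, 11.26, 11.65 and 11.92 in leiomyosarcoma, and fell by 3.08 ± 0.52 (adjusted p = 0.00329). Vcan, versican, fell by 1.99 ± 0.36 (adjusted p = 0.005), and Ccn4, a Wnt-induced matricellular protein, rose by 1.42 (adjusted p = 0.00118). Over 25 glycoproteins and proteoglycans 4 were called higher and 4 lower, with a median of -0.01. The other 2 called higher were Tnn, tenascin N of bone (2.33), and Prelp (2.68 ± 0.71), and the other 2 called lower were Ecm1 (-2.39 ± 0.59) and Dcn, decorin (-1.94 ± 0.50). The block ended the calls of Tnn, Ecm1 and Dcn (adjusted p = 0.0803, 0.0819 and 0.122), and Prelp varied between 1.87 without leiomyosarcoma 4 and 3.29 without leiomyosarcoma 1, which held 5.24 and 9.51. Leaving out leiomyosarcoma 3 or 4 ended the call of Ecm1, osteosarcoma 3 or 4 or leiomyosarcoma 2, 3 or 4 that of Dcn, and osteosarcoma 1, 2 or 3 or leiomyosarcoma 2 or 3 that of Prelp (adjusted p 0.0518 to 0.0801), while Ecm1 was -1.73 without osteosarcoma 2.

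The basement membrane, the sheet on which vessels and muscle cells rest, had 2 genes called higher and 3 lower of 12. Agrn, agrin, rose by 1.21 ± 0.25 (adjusted p = 0.0104) and Lamb2 by 1.99 ± 0.35 (adjusted p = 0.00415), while Lamb1 fell by 1.90 ± 0.37 (adjusted p = 0.00772) and Nid1, nidogen, by 2.10 ± 0.41 (adjusted p = 0.00755). The laminin beta chains thus went opposite ways: Lamb2 had 9.54, 9.72, 9.67 and 9.23 in osteosarcoma, against 8.62, 7.37, 7.70 and 6.50 in leiomyosarcoma, and Lamb1 5.77, 4.59, 5.65 and 6.52, against 7.53, 6.75, 8.01 and 7.86. Lamc1 was called at -1.03, a call that ended with the block (adjusted p = 0.0712) and without any of 6 arrays, all but osteosarcoma 4 and leiomyosarcoma 2 (adjusted p 0.0714 to 0.113).

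Enzymes that cut matrix changed sides between the tumours. Mmp13, collagenase 3 of osteoblasts and hypertrophic cartilage, had 15.56, 15.89, 14.70 and 15.89 in osteosarcoma, against 11.31, 10.62, 10.14 and 10.51 in leiomyosarcoma. The tumours were far apart, by 4.87 ± 0.31 (adjusted p = 3.1e-06), and other probes of the gene differed by 2.52 and 5.52. Mmp3, stromelysin 1, a product of stromal fibroblasts, had 5.52, 7.57, 7.82 and 4.92 in osteosarcoma, against 12.37, 11.95, 12.80 and 11.53 in leiomyosarcoma. It fell by 5.71 ± 0.61 (adjusted p = 0.000166) and was detected on 3 of 4 osteosarcoma arrays. Mmp10, stromelysin 2, fell by 3.17 ± 0.74 (adjusted p = 0.0182), with 7.90 in osteosarcoma 2 inside the leiomyosarcoma range, and was at -3.90 without that tumour and -4.09 with the block. Its call ended without osteosarcoma 1 or leiomyosarcoma 3 (adjusted p = 0.0502 and 0.0534). Mmp16, a membrane-bound form, rose by 3.10 ± 0.42 (adjusted p = 0.000872). In the list of 16 metalloproteinases and relatives 3 were called higher and 2 lower, with a median of 0.00.

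Inhibitors and activators of plasmin and metalloproteinases were called higher for 1 of 9 genes and lower for 3. Plau, urokinase, was at 7.73, 7.96, 7.78 and 8.05 in osteosarcoma, against 9.27, 8.68, 9.81 and 9.07 in leiomyosarcoma, and fell by 1.33 ± 0.22 (adjusted p = 0.00329). Plat, tissue plasminogen activator, fell by 2.02 ± 0.50 and Timp2 by 1.35 ± 0.28 (adjusted p = 0.0236 and 0.00981), calls that ended with the block (adjusted p = 0.0535 and 0.0779). Plat also lost its call without leiomyosarcoma 1, 3 or 4 (adjusted p 0.061 to 0.0677). Reck, a membrane-bound inhibitor, rose by 1.10 ± 0.25 (adjusted p = 0.0149), but by 0.93 and 0.99, under the threshold of 1, without osteosarcoma 1 or 2.

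Osteoclast genes were higher in osteosarcoma, most of all in osteosarcomas 1 and 4. Of 15 genes of the osteoclast and its RANK system, 6 were called higher and 0 lower, all 15 differences were above 0, and the median was 1.27. Acp5, the tartrate-resistant phosphatase that marks osteoclasts, was at 9.89, 6.79, 7.37 and 10.25 in osteosarcoma, against 4.67, 4.70, 5.11 and 4.73 in leiomyosarcoma, where it was not detected. Its difference was 3.77 ± 0.65 (adjusted p = 0.0036), at least 10.3-fold, and 4.37 without osteosarcoma 2. Ctsk, cathepsin K, which digests bone collagen, had 15.27, 11.96, 12.31 and 15.48 in osteosarcoma, against 11.13, 10.49, 11.24 and 10.90 in leiomyosarcoma. Dcstamp, the fusion receptor of osteoclasts, had 9.78, 5.76, 6.68 and 10.83, against 4.95, 4.94, 5.06 and 4.79. In each case osteosarcomas 1 and 4 were the high pair and osteosarcomas 2 and 3 lay nearer to leiomyosarcoma.

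Ctsk differed by 2.82 ± 0.75, Dcstamp, not detected in leiomyosarcoma, by a fitted 3.32 (at least 8.26-fold), Mmp9, gelatinase B, by 2.89 ± 0.79 and Oscar, an osteoclast receptor, by 2.68 (adjusted p = 0.0329, 0.0323, 0.035 and 0.0449). These 4 calls ended with the background block (adjusted p = 0.137, 0.12, 0.214 and 0.165), and also without osteosarcoma 1, osteosarcoma 4 or any leiomyosarcoma (adjusted p 0.0579 to 0.113), except that Mmp9 kept its call without leiomyosarcoma 3. Without osteosarcoma 2 they held, at 3.41, 4.16, 3.55 and 3.47. Tnfsf11, RANKL itself, which osteoblast-lineage cells make, had 7.33, 5.62, 5.83 and 6.93 in osteosarcoma, against 4.67, 4.79, 4.82 and 4.62 in leiomyosarcoma, where no array detected it. It was called at 1.71 (adjusted p = 0.0143), at least 2.32-fold, again with osteosarcomas 1 and 4 highest, and the block ended the call (adjusted p = 0.0642). Its receptor Tnfrsf11a and the decoy receptor Tnfrsf11b were not called, at 0.40 and 0.85 (adjusted p = 0.546 and 0.565).

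Cartilage genes were higher for 3 and lower for 1 of 11, with a median of 0.83. Comp, a matrix protein of cartilage and tendon, was called at a fitted 3.23 (adjusted p = 0.00134) by a probe that no leiomyosarcoma array detected, and its further probe differed by 1.67. Col2a1, the collagen of cartilage, was at 8.34, 7.88, 8.29 and 9.47 in osteosarcoma, against 4.70, 7.38, 4.94 and 4.73 in leiomyosarcoma. Leiomyosarcoma 2 again came near to osteosarcoma, and the difference of 3.06 ± 0.54 (adjusted p = 0.00431) was 3.71 without it and 3.66 with the block. Chad, chondroadherin, was called at 1.59 ± 0.44, at least 2.08-fold (adjusted p = 0.0375), a call that ended with the block (adjusted p = 0.15) and without osteosarcoma 4 or any leiomyosarcoma (adjusted p 0.0597 to 0.0885). Sox5 fell by 2.11 ± 0.37 (adjusted p = 0.00415), or 1.38 with the block. Sox9, the master factor of cartilage, was high in both, at 10.49, 12.32, 10.40 and 9.35 in osteosarcoma, against 11.40, 12.34, 12.20 and 11.57 in leiomyosarcoma (adjusted p = 0.216). Without osteosarcoma 2, which overlapped leiomyosarcoma, Sox9 was called lower (-1.80). Acan, aggrecan, averaged 6.04 in osteosarcoma and 5.21 in leiomyosarcoma, with 8.28 in osteosarcoma 1 (adjusted p = 0.481).

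The label leiomyosarcoma was set against smooth muscle genes, and most of them gave no difference in its favour. Of 23 contractile and structural genes of smooth muscle, 2 were called higher in osteosarcoma and 0 higher in leiomyosarcoma in limma, where 1 had an unadjusted p under 0.05, and the median difference, osteosarcoma minus leiomyosarcoma, was 0.20. Their mean signal was 8.58, 7.22, 7.66 and 8.45 in osteosarcoma, against 7.56, 7.41, 7.54 and 7.38 in leiomyosarcoma. Osteosarcoma 2 was below every leiomyosarcoma. The osteosarcomas stood in the order of the skeletal muscle fibre genes given below, and the part of skeletal muscle in this list was not tested. Myh11, smooth muscle myosin, was not detected on any of the 8 tumour arrays, with 4.60 to 5.09 in osteosarcoma and 4.53 to 4.86 in leiomyosarcoma. Cnn1, calponin, and Synpo2 were detected on 1 osteosarcoma array each and on no leiomyosarcoma array. Tagln, transgelin, was detected in osteosarcoma 4 (6.99) and in 3 leiomyosarcomas, which had 5.62, 4.62, 5.49 and 5.84. Myocd, myocardin, was near background, at 4.91 to 5.64 in osteosarcoma and 5.01 to 5.28 in leiomyosarcoma. In the tumours labelled leiomyosarcoma, Myh11, Cnn1, Synpo2 and Myocd were thus at or near background and Tagln was low, while 14 of the 23 genes were detected on all 4 arrays. The group is called here by its label only.

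Smooth muscle genes with strong signal were so in both tumours. Acta2, smooth muscle actin, had 13.37, 13.53, 11.29 and 14.85 in osteosarcoma, against 13.31, 11.71, 14.44 and 13.68 in leiomyosarcoma, and overlapped fully (difference -0.02 ± 0.70, adjusted p = 0.989). Smtn, smoothelin, had 10.02, 10.43, 10.53 and 10.01, against 10.14, 9.93, 9.54 and 10.32 (0.26 ± 0.22, adjusted p = 0.501). Des, desmin, ranged widely, at 13.19, 5.56, 8.78 and 10.64 in osteosarcoma and 8.41, 8.51, 7.06 and 6.22 in leiomyosarcoma, and was called higher (3.32) when osteosarcoma 2 was left out. Among osteosarcomas Des kept the order of the skeletal muscle fibre genes. Cald1, caldesmon, differed by 0.90 ± 0.34 (adjusted p = 0.11) on its brightest probe, and was called at 1.19 without leiomyosarcoma 3. Its other 4 probes went the other way, at -1.47 to -0.26, and the mean of its detected probes differed by -0.35 without a call. The direction of Cald1 thus depends on the probe. Called higher in osteosarcoma were Synm, synemin, an intermediate filament protein, by 2.02 ± 0.34 (adjusted p = 0.00332), and Mylk, myosin light chain kinase, by 1.92 ± 0.44 (adjusted p = 0.0165). The block ended the call of Mylk (adjusted p = 0.063).

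**Figure D3:**
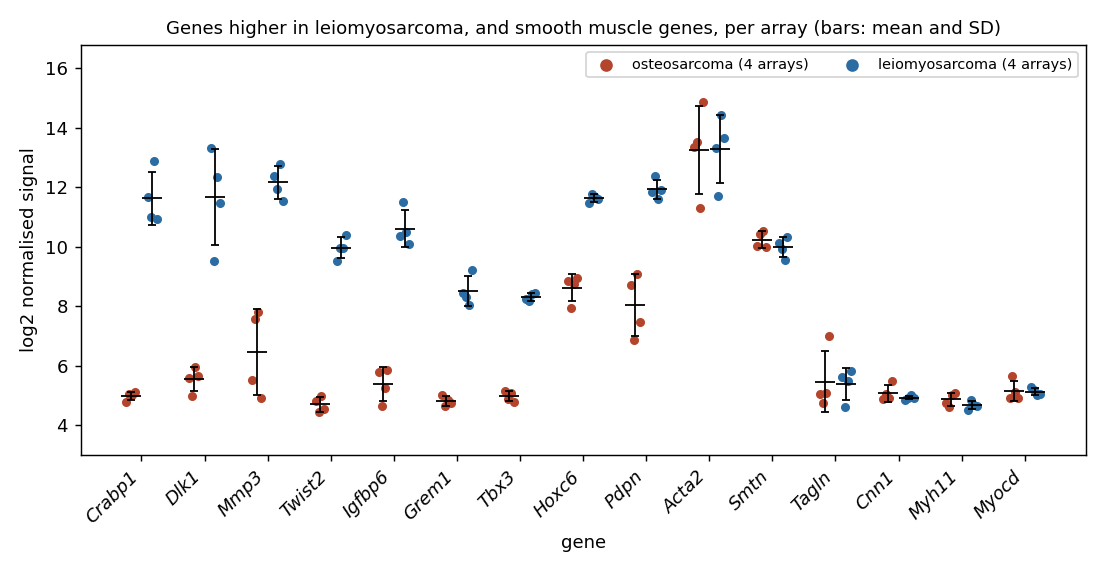
Log2 normalised signal (vertical axis) of 9 genes called lower in osteosarcoma (Crabp1 to Pdpn) and 6 smooth muscle genes (Acta2 to Myocd), on each of 4 osteosarcoma arrays (red, left) and 4 leiomyosarcoma arrays (blue, right), with black bars for the mean and SD. Crabp1, Twist2, Grem1 and Tbx3 stay near 5 in osteosarcoma, while Cnn1, Myh11 and Myocd stay near 5 in both tumours, Tagln does so except for 6.99 in osteosarcoma 4, and Acta2 is high in both.

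Skeletal muscle genes moved with single tumours. All 27 muscle fibre genes tested had a difference above 0, with a median of 2.31, and 0 were called in limma, though 13 had an unadjusted p under 0.05. Their mean signal was 10.67, 5.02, 6.72 and 7.57 in osteosarcoma, against 4.97, 6.10, 5.28 and 5.0 in leiomyosarcoma. Osteosarcomas 1, 3 and 4 were above every leiomyosarcoma, and osteosarcoma 2 was at the leiomyosarcoma level. Acta1, skeletal actin, had 14.89, 5.64, 9.79 and 11.73, against 4.60, 9.03, 6.63 and 4.90 (difference 4.22, adjusted p = 0.108), and was called at 5.85 without osteosarcoma 2. Eno3 and Car3, which muscle fibres also express, were highest in osteosarcoma 1 too, but otherwise did not keep the order of the fibre genes. Eno3, the muscle enolase, had 10.54, 9.24, 9.85 and 7.62, against 6.91, 7.77, 6.40 and 6.24. Car3, a carbonic anhydrase of muscle and fat, had 12.37, 9.43, 7.83 and 6.57, against 4.58, 5.17, 4.53 and 4.53. Among osteosarcomas both were lowest in osteosarcoma 4, and in osteosarcoma 2 both were above every leiomyosarcoma. Eno3 was called at 2.48 ± 0.60 (adjusted p = 0.0207), and the call ended without osteosarcoma 1 or leiomyosarcoma 3 or 4 (adjusted p 0.053 to 0.0608). Car3 was called at 4.35 ± 0.93, at least 14.3-fold (adjusted p = 0.0114), or 3.24 without osteosarcoma 1 and 5.17 without osteosarcoma 4. The part of muscle tissue in these differences was not tested.

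Cdh15, M-cadherin of muscle satellite cells, did not follow the fibre genes. It had 9.03, 9.06, 8.55 and 9.0 in osteosarcoma, against 4.68, 4.82, 4.54 and 4.66 in leiomyosarcoma, where it was not detected. The signal was as high in osteosarcoma 2, where the fibre genes averaged 5.02, as in osteosarcoma 1, where they averaged 10.67. The difference was 4.23 ± 0.26 (adjusted p = 1.91e-06), at least 13.0-fold. Cdh15 was the 1 gene called among 8 myogenic regulators and embryonic muscle genes, and Myod1, Myog and Mymk differed by 0.22, 0.25 and 0.19 without a call.

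**Figure D4:**
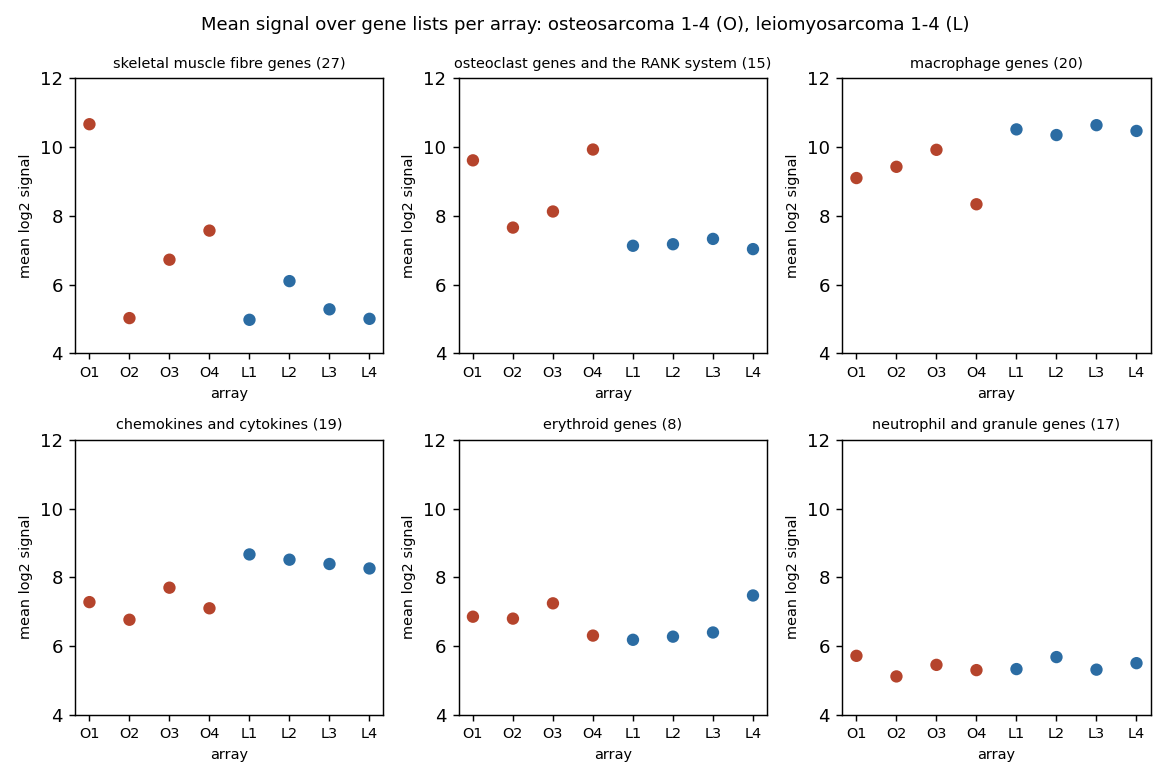
Mean log2 normalised signal (vertical axis) over 6 gene lists on each tumour array (horizontal axis), osteosarcomas 1 to 4 in red and leiomyosarcomas 1 to 4 in blue, with the number of genes in brackets. Fibre genes are highest in osteosarcoma 1 (10.67), osteoclast genes in osteosarcomas 1 and 4, macrophage genes and chemokines in the leiomyosarcomas, and the erythroid mean in leiomyosarcoma 4 (7.47).

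Among the genes with the largest decreases in osteosarcoma, several were at background there. Crabp1, a retinoic acid binding protein of embryonic mesenchyme and neural crest, had 4.77, 5.04, 5.02 and 5.11 in osteosarcoma, where it was not detected, against 11.68, 11.01, 12.88 and 10.95 in leiomyosarcoma. It was lower by a fitted 6.65 ± 0.36 (adjusted p = 1.1e-06), at least 84.4-fold. Twist2, a basic helix-loop-helix factor of dermal and mesenchymal progenitors that holds back osteoblast maturation, had 4.83, 4.44, 5.0 and 4.54, against 9.53, 9.96, 9.96 and 10.40. It was not detected in osteosarcoma, with a difference of -5.26 ± 0.20 (adjusted p = 7.14e-08), at least 26.6-fold. Neither gene overlapped between the tumours. Zeb1, an epithelial-to-mesenchymal transition factor, was called at -1.64 ± 0.33 (adjusted p = 0.00853), a call that ended with the block (adjusted p = 0.0594), and the other 4 of 6 factors of the Twist, Snail and Zeb families were not called.

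Dlk1, an imprinted transmembrane protein that keeps progenitors from differentiating, had 5.60, 4.99, 5.97 and 5.66 in osteosarcoma, against 13.32, 9.54, 12.35 and 11.49 in leiomyosarcoma. Leiomyosarcoma 2 was the lowest of its group, and the difference of -6.12 ± 0.68 (adjusted p = 0.00025) was -6.84 without it. Cdkn1c, the imprinted cell-cycle inhibitor p57, had 7.24, 10.60, 9.98 and 6.79, against 13.44, 11.29, 12.56 and 13.30, a difference of -4.0 ± 0.80 (adjusted p = 0.00846). Osteosarcomas 2 and 3 came near to leiomyosarcoma, and it was -4.65 without osteosarcoma 2 and -3.38 without osteosarcoma 4. Rian, a non-coding RNA of the Dlk1 cluster, had 4.86, 4.63, 4.48 and 4.51, against 7.06, 4.64, 6.83 and 7.26, so that leiomyosarcoma 2, which had the least Dlk1, also had no Rian above the osteosarcoma level. No osteosarcoma array detected Rian, which was lower by at least 2.33-fold (fitted -1.83, adjusted p = 0.0257), or by a fitted -2.43 without leiomyosarcoma 2 and with the block, and the call ended without osteosarcoma 3 or 4 or leiomyosarcoma 1, 3 or 4 (adjusted p 0.0534 to 0.0732). These 3 were the calls among 12 imprinted growth genes, whose median was -0.67, and Igf2 was not called at 9.16 in osteosarcoma and 10.42 in leiomyosarcoma on average.

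Other genes with large decreases act outside the cell or in its membrane. Igfbp6, which binds insulin-like growth factor 2, had 5.78, 4.63, 5.27 and 5.85 in osteosarcoma, against 10.36, 11.51, 10.49 and 10.08 in leiomyosarcoma (-5.23 ± 0.44, adjusted p = 2.46e-05). Acpp, prostatic acid phosphatase, had 4.92, 4.75, 5.41 and 5.18, against 11.05, 9.70, 11.83 and 9.88 (-5.55 ± 0.42, adjusted p = 1e-05), though a further probe differed by -1.42. Both were clear of overlap. Lrig1, which restrains the epidermal growth factor receptor, had 5.43, 4.68, 6.26 and 7.96, against 10.61, 10.89, 11.42 and 10.69 (-4.82 ± 0.62, adjusted p = 0.000648), or -5.45 without osteosarcoma 4. Dpt, dermatopontin of dermal fibroblasts, had 6.47, 4.68, 6.29 and 7.59, against 11.59, 9.07, 10.95 and 10.31 (-4.22 ± 0.63, adjusted p = 0.00146). Prl2c3, a proliferin, had 4.88, 5.26, 5.14 and 4.94, against 10.16, 8.0, 11.85 and 11.66, with leiomyosarcoma 2 again the lowest. It differed by -5.36 ± 0.66 (adjusted p = 0.000493), by -6.17 without leiomyosarcoma 2 and by -6.70 with the block. Prl2c2 and Prl2c4, which no osteosarcoma array detected, were lower by at least 18.1-fold and 17.1-fold, and are near-identical copies whose signals cannot be told from it.

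Of 19 fibroblast and mesenchymal genes, 3 were called lower and 1 higher in osteosarcoma, with a median of -0.57 and 3 differences above 0. Dpt and Dcn, given above, and Cd34, a marker of stromal and blood-forming progenitors, were lower, Cd34 by 1.74 ± 0.35 with the call ended by the block (adjusted p = 0.00899 and, with the block, 0.0717). Fap, fibroblast activation protein, was the gene called higher, at 10.08, 9.38, 8.68 and 10.16 in osteosarcoma, against 6.76, 6.47, 7.71 and 7.28 in leiomyosarcoma. It rose by 2.52 ± 0.37 (adjusted p = 0.00136) with no overlap. Pdgfra, a mesenchymal receptor, was not called: it had 10.58, 13.35, 9.44 and 10.54 in osteosarcoma, against 11.47, 11.14, 11.35 and 11.06 in leiomyosarcoma, and was called lower (-1.07) when osteosarcoma 2 was left out.

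Patterning factors told the tumours apart in both directions. Alx4, a homeodomain factor of skull and limb mesenchyme, had 9.56, 10.65, 9.97 and 9.19 in osteosarcoma, against 4.53, 5.45, 4.60 and 4.69 in leiomyosarcoma (5.02 ± 0.35, adjusted p = 6.07e-06), with a further probe at 0.27. Tbx2 and Tbx3, related T-box repressors of the limb, went opposite ways. Tbx2 had 7.0, 7.49, 6.96 and 6.85, against 4.85, 4.94, 4.78 and 4.60, where it was not detected, and rose by 2.28 ± 0.18 (adjusted p = 1.3e-05), at least 3.63-fold. Tbx3 had 5.14, 4.89, 5.10 and 4.79, against 8.23, 8.17, 8.42 and 8.43, and was lower by a fitted 3.33 (adjusted p = 1.98e-07), though no osteosarcoma array detected this probe. All 8 tumours were thus split by each gene, with further probes at 0.37 for Tbx2 and -1.86 to -0.47 for Tbx3. Osr2, an odd-skipped factor of joints and palate, had 5.68, 8.23, 9.32 and 5.33, against 11.60, 11.14, 10.94 and 12.09 (-4.30 ± 0.81, adjusted p = 0.00602), or -5.03 without osteosarcoma 3 and -3.70 without osteosarcoma 4.

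The forkhead pair also diverged. Foxc1 was called at 1.89 (adjusted p = 0.000535), and Foxc2 at -1.39 ± 0.34 (adjusted p = 0.0219), the Foxc2 call ending without osteosarcoma 3 or leiomyosarcoma 3 or 4 (adjusted p 0.0521 to 0.0661). Shox2, of the upper limb, was called at 1.66, or 2.26 with the block, and the call ended without leiomyosarcoma 3 or 4 (adjusted p = 0.0677 and 0.0644). Eya1 was called at 1.65, at least 1.83-fold, and the call ended with the block (adjusted p = 0.0942) and without osteosarcoma 3 or leiomyosarcoma 1, 3 or 4 (adjusted p 0.0508 to 0.0597). In the list of 20 limb and mesenchymal patterning factors 5 were called higher and 3 lower, with a median of -0.10.

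Hox genes, which record position along the body and limb, were called higher for 4 and lower for 3 of 21 tested, with a median of -0.15. The shares over all genes were 3.31% and 4.34%. Hoxc6 had 8.86, 7.96, 8.74 and 8.95 in osteosarcoma, against 11.48, 11.78, 11.68 and 11.60 in leiomyosarcoma (-3.01 ± 0.28, adjusted p = 6.62e-05), and Hoxd8 had 7.16, 5.47, 6.50 and 6.95, against 9.16, 8.42, 8.93 and 9.07 (-2.37 ± 0.33, adjusted p = 0.00113). Both separated the tumours fully. Hoxb2 rose by 2.35 ± 0.34 (adjusted p = 0.00138), Hoxa5 by 2.31 ± 0.40 (adjusted p = 0.00394) and Hoxa7 by 1.91 (adjusted p = 0.0105). The genes called higher lay in the A and B clusters and those called lower in the C and D clusters. Hoxd4 (-1.19 ± 0.28) and Hoxb4 (1.00) were close to the threshold: the block ended both calls (adjusted p = 0.0776 and 0.185), as did leaving out leiomyosarcoma 1 or 3 for Hoxd4 (-0.97 and -1.15) and any of 6 arrays, all but osteosarcoma 2 and leiomyosarcoma 1, for Hoxb4 (adjusted p 0.0518 to 0.102). Where in the body each tumour grew is not given beyond the tissue name.

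Signalling genes of bone growth were also split. Grem1, gremlin, a secreted blocker of bone morphogenetic proteins, had 5.01, 4.65, 4.84 and 4.76 in osteosarcoma, where it was not detected, against 8.45, 8.30, 8.06 and 9.21 in leiomyosarcoma. It differed by -3.69 ± 0.23 (adjusted p = 2.32e-06), at least 9.70-fold. Bmp3, a family member that restrains bone density, had 9.13, 9.77, 9.06 and 7.29, against 4.78, 4.99, 4.94 and 6.19 (3.59 ± 0.47, adjusted p = 0.000735). Neither overlapped, and Bmp3 was nearest to doing so through osteosarcoma 4 and leiomyosarcoma 4. Bmpr1b, a receptor, was not detected in osteosarcoma and was lower by at least 3.13-fold (-2.22 ± 0.46, adjusted p = 0.00985), and Tgfbi, a transforming growth factor beta target, and Inhba, the activin A subunit, were called at -1.90 and -1.35 (adjusted p = 0.00437 and 0.0216). Inhba lost its call without osteosarcoma 1 or leiomyosarcoma 1 or 4 (adjusted p 0.0596 to 0.0603).

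Tgfb1 rose by 1.22 ± 0.26 (adjusted p = 0.0109). Bmp4 had 8.55, 9.97, 8.26 and 9.22 in osteosarcoma, against 8.33, 6.73, 7.42 and 5.59 in leiomyosarcoma, and overlapped in 1 tumour. It was called at 1.98 ± 0.53 (adjusted p = 0.0333), a call that ended without osteosarcoma 2 or 4 or leiomyosarcoma 2, 3 or 4 (adjusted p 0.0578 to 0.0744). Id3, a target of these proteins (1.13 ± 0.33), and Chrd, chordin, another blocker (-1.29), were called at adjusted p = 0.045, and both calls ended with the block (adjusted p = 0.0834 and 0.296) and without any of 7 single arrays (adjusted p 0.0517 to 0.114), all but leiomyosarcoma 2 for Id3 and leiomyosarcoma 4 for Chrd. Over 25 genes of this pathway 4 were called higher and 5 lower, with a median of -0.13, against 3.31% and 4.34% of all genes.

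In the Wnt pathway 3 of 20 genes were called higher and 4 lower, against 3.31% and 4.34% of all genes tested. The secreted inhibitor Wif1, which maturing osteoblasts make, had 8.73, 8.81, 7.69 and 7.02 in osteosarcoma, against 4.69, 5.48, 4.78 and 5.13 in leiomyosarcoma (3.04 ± 0.36, adjusted p = 0.000411). Wnt7b, a ligand, had 5.56, 4.85, 6.50 and 7.63, against 9.0, 11.16, 8.98 and 9.91 (-3.63 ± 0.58, adjusted p = 0.00246). There was no overlap in either gene. Wnt4 rose by 2.64 ± 0.41 (adjusted p = 0.00199), while Wnt5a fell by 2.58 ± 0.54 (adjusted p = 0.0108) and its receptor Ror2 by 1.74 (adjusted p = 0.000466). Wnt5a was at -1.95 without osteosarcoma 2, its lowest tumour at 4.87. Fzd2, another receptor, was called at -1.10 and was under the threshold of 1 without leiomyosarcoma 4 (-0.97). Sfrp1, a secreted inhibitor, was called at 1.41 ± 0.37, and the call ended without osteosarcoma 1, 3 or 4 or leiomyosarcoma 2, 3 or 4 (adjusted p 0.0555 to 0.0913). Of 17 Hedgehog and Notch genes, 1 was called, Notch3, a receptor of vessel-wall cells, which rose by 1.81 ± 0.22 (adjusted p = 0.000503). Over all genes 7.65% were called in either direction.

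Among 23 receptor tyrosine kinases and ligands 3 were called higher and 4 lower, against 3.31% and 4.34% of all genes. Fgfr2, a fibroblast growth factor receptor of bone-forming cells, had 10.65, 11.29, 10.57 and 11.37 in osteosarcoma, against 6.51, 8.19, 6.99 and 7.51 in leiomyosarcoma, a difference of 3.67 ± 0.37 (adjusted p = 0.000105). Hgf, the ligand of Met, had 4.97, 4.76, 4.92 and 5.70, against 8.10, 8.08, 7.50 and 7.25 (-2.65 ± 0.25, adjusted p = 6.71e-05), and was detected on 1 osteosarcoma array. Both genes were clear of overlap. Hbegf, an epidermal growth factor family ligand, fell by 2.30 ± 0.41 (adjusted p = 0.00427) and Axl by 1.64 (adjusted p = 0.00914). Egfr (-2.07 ± 0.54) and Pdgfa (1.26 ± 0.29) were called as well, as was Fgfr3, which no leiomyosarcoma array detected and which was higher by at least 1.72-fold. The block ended these calls (adjusted p = 0.113, 0.0708 and 0.108). So did leaving out osteosarcoma 3 or any leiomyosarcoma for Egfr, leiomyosarcoma 3 for Pdgfa, and osteosarcoma 3 or 4 or any leiomyosarcoma for Fgfr3 (adjusted p 0.0502 to 0.0915), and without osteosarcoma 2 Egfr was at -1.47.

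The channel genes Panx3 and Kcnk1 were among the 12 largest increases without overlap between the tumours. Panx3, a pannexin channel of osteoblasts and cartilage cells, had 12.61, 11.86, 13.73 and 10.65 in osteosarcoma, against 5.65, 5.36, 5.16 and 5.31 in leiomyosarcoma (6.84 ± 0.49, adjusted p = 6.16e-06). Kcnk1, a background potassium channel, had 9.53, 10.68, 10.10 and 10.34, against 4.65, 4.92, 4.92 and 4.79 (5.35 ± 0.44, adjusted p = 2.12e-05), at least 30.9-fold. Tmie, known from mechanosensing in the inner ear, had 9.79, 10.05, 10.89 and 10.37, against 4.51, 4.59, 4.67 and 4.44 (5.72 ± 0.23, adjusted p = 9.37e-08), at least 33.4-fold. The leiomyosarcomas detected neither Kcnk1 nor Tmie. Clec11a, osteolectin, a growth factor of bone-forming progenitors, had 11.46, 11.47, 10.34 and 9.67, against 5.47, 4.47, 4.86 and 4.58 (5.89 ± 0.41, adjusted p = 5.66e-06).

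Of 13 channels and gap junction genes, 4 were called higher, Panx3 by the most, and 2 lower, Gjc1 and Ank. Gjc1, a connexin of gap junctions, fell by 2.03 ± 0.24 (adjusted p = 0.000411), Kcnma1 was called at 1.20, at least 1.75-fold, and Ano1 at 1.48 (adjusted p = 0.00949 and 0.0152). Trpv4, a calcium channel of cartilage and bone, rose by 1.59 ± 0.33 (adjusted p = 0.00981), a call that ended with the block (adjusted p = 0.0508). Integrin alpha 5 (Itga5), the fibronectin receptor, had 8.63, 7.35, 8.64 and 9.12 in osteosarcoma, against 10.65, 10.62, 10.37 and 10.73 in leiomyosarcoma, and fell by 2.16 ± 0.31 (adjusted p = 0.0012). Itga11, a collagen receptor, was called at 2.49 ± 0.54 and Vcam1 at -1.34 ± 0.35 (adjusted p = 0.0126 and 0.0287), and the block ended both calls (adjusted p = 0.0744 and 0.0611). Vcam1 was also lost without any of 6 arrays, all but osteosarcoma 1 and leiomyosarcoma 2 (adjusted p 0.0517 to 0.0791).

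Some macrophage genes and cytokines were called lower in osteosarcoma. All 20 macrophage genes had a difference below 0, with a median of -1.28, 5 were called lower and 0 higher. Their mean was 9.10, 9.43, 9.92 and 8.34 in osteosarcoma, against 10.52, 10.35, 10.64 and 10.47 in leiomyosarcoma, with no overlap. Apoe, apolipoprotein E, had 8.71, 9.64, 9.54 and 6.56, against 12.21, 11.92, 11.06 and 11.55 (-3.08 ± 0.63, adjusted p = 0.00965), or -2.39 without osteosarcoma 4. Mrc1, the mannose receptor, had 8.11, 9.59, 8.82 and 6.53, against 10.81, 10.28, 10.86 and 10.83 (-2.44 ± 0.52, adjusted p = 0.0114). Osteosarcoma 4, one of the pair with the highest osteoclast genes, had the least of both. Lyz2, Cd14 and Lyz1 were called at -1.75 ± 0.41, -1.45 ± 0.31 and -1.30. The block ended the calls of Apoe, Lyz2, Cd14 and Lyz1 (adjusted p = 0.0708, 0.0752, 0.062 and 0.12), Lyz2 was lost without leiomyosarcoma 1 or 3 (adjusted p = 0.052 and 0.0509), and Lyz1 without any 1 array (adjusted p 0.0502 to 0.113). Csf1r, the receptor all macrophages carry, differed by -0.50 (adjusted p = 0.402).

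Cxcl1, which draws neutrophils, had 5.56, 5.29, 6.13 and 5.24 in osteosarcoma, against 7.89, 10.76, 8.35 and 9.57 in leiomyosarcoma (-3.59 ± 0.51, adjusted p = 0.00118). Ccl2, which draws monocytes, had 4.90, 5.64, 6.93 and 5.43, against 8.40, 10.39, 8.61 and 8.72 (-3.30 ± 0.47, adjusted p = 0.00119), and Il1b, interleukin 1 beta, 5.45, 4.85, 5.98 and 5.16, against 8.87, 8.99, 8.26 and 7.94 (-3.15 ± 0.31, adjusted p = 0.0001). Every leiomyosarcoma exceeded every osteosarcoma in these 3, with leiomyosarcoma 2 the highest. Ccl7, another monocyte chemokine, was called at -3.19 ± 0.62 (adjusted p = 0.0076), or -3.87 without osteosarcoma 3, and the block ended the call (adjusted p = 0.0572). Il33 was called at -1.94, or -2.66 with the block, and the call ended without osteosarcoma 2 or 4 or leiomyosarcoma 2, 3 or 4 (adjusted p 0.0573 to 0.0815). In all, 5 of 19 chemokines and cytokines were called lower and 0 higher, with a median of -0.62.

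Genes of antigen presentation and of other blood lineages were called in both directions. Of 14 class II and antigen processing genes, 3 were called lower and 2 higher, against 4.34% and 3.31% of all genes. The other 9 were not called, and 6 differences were above 0. Called lower were H2-Ab1 by 2.66 ± 0.70, Cd74 by 2.28 ± 0.66 and H2-DMa by 1.78 ± 0.36, and the class I genes H2-D1 and H2-K1 were called higher by 1.13 ± 0.33 and 1.02 ± 0.29 (adjusted p = 0.03, 0.0452, 0.00896, 0.0455 and 0.0412). All 5 calls ended with the block (adjusted p 0.0685 to 0.277), and those other than H2-DMa ended without any of 5 to 7 single arrays (adjusted p 0.0534 to 0.112). Pf4, platelet factor 4, which macrophages also express, was called at -1.98 ± 0.41, again not with the block (adjusted p = 0.0547). Mpo, myeloperoxidase, was called at 3.12 ± 0.39 (adjusted p = 0.000514), but its other 3 probes ran from -0.08 to 2.93, and 16 further neutrophil and granule genes were not called. Cd247, the T-cell receptor zeta chain, rose by 1.90 ± 0.27 (adjusted p = 0.00119) and Klrd1, a natural killer cell receptor, fell by 1.86 ± 0.39 (adjusted p = 0.0108), the 2 calls among 14 genes of those cells. Tfrc, the transferrin receptor, was the 1 call among 8 erythroid genes, at 1.72 ± 0.37 (adjusted p = 0.0114), and the block ended it (adjusted p = 0.0585). In limma 0 of 10 B cell, 0 of 20 endothelial, 0 of 8 epithelial and 0 of 15 interferon-stimulated genes were called, where 0, 2, 1 and 2 had an unadjusted p under 0.05, and Pecam1 of endothelium differed by 0.51 (adjusted p = 0.23). Among 10 pericyte genes Notch3, given above, and Cox4i2 (2.63 ± 0.33, adjusted p = 0.000557) were called higher.

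Schwann cell and nerve genes were lower for 2 of 8. Gap43, a growth cone protein, was not detected in osteosarcoma and had 8.76, 4.94, 7.16 and 8.03 in leiomyosarcoma, where leiomyosarcoma 2 was near background. It was lower by at least 3.97-fold (-2.48 ± 0.61, adjusted p = 0.0231), or -3.24 without leiomyosarcoma 2, and the call ended with the block (adjusted p = 0.0516) and without leiomyosarcoma 1, 3 or 4 (adjusted p 0.053 to 0.0665). Nefm, a neurofilament, was not detected in osteosarcoma either and was called lower by at least 1.31-fold (fitted -1.06), and the call ended without leiomyosarcoma 1 or 3 (-0.98 and -0.82).

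In limma 0 of 15 mitosis genes and 0 of 23 DNA replication genes were called, with medians of 0.23 and -0.05. At an unadjusted p under 0.05, 0 mitosis genes and 2 replication genes, 1 each way, would count. Top2a, the topoisomerase of dividing cells, had 7.94, 9.68, 9.38 and 8.24 in osteosarcoma, against 8.22, 8.44, 8.88 and 8.85 in leiomyosarcoma (0.21 ± 0.37, adjusted p = 0.782). Myc stood at 5.20 to 5.93 in osteosarcoma and 5.55 to 6.14 in leiomyosarcoma (adjusted p = 0.428). The p53 targets Cdkn1a, Mdm2 and Ccng1 differed by 0.97 ± 0.77, 0.46 ± 0.22 and 0.20 ± 0.24 and were not called. Of 22 p53 targets 1 was called higher and 1 lower, against 3.31% and 4.34% of all genes. These were Ddit4l at 2.27 ± 0.68 and Plk2 at -1.14 ± 0.32 (adjusted p = 0.0499 and 0.0384). Both calls ended with the block (adjusted p = 0.177 and 0.0517) and without any of 6 or 7 single arrays (adjusted p 0.0514 to 0.125). Ddit4l was at 2.98 without osteosarcoma 2 and 1.66 without osteosarcoma 4.

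Cdkn2a, which encodes the tumour suppressors Ink4a and Arf, had 6.81, 7.57, 7.52 and 6.99 in osteosarcoma, against 8.09, 9.75, 8.53 and 8.19 in leiomyosarcoma. The groups did not overlap and differed by -1.42 ± 0.33 (adjusted p = 0.0185), but the call ended with the block (adjusted p = 0.129) and without osteosarcoma 1 (adjusted p = 0.0515). Rb1 differed by 0.41 ± 0.36 (adjusted p = 0.519), with 7.69 in leiomyosarcoma 4 against 8.31 to 8.44 in the other 3. Kit, a receptor of stem and mast cells, differed by -0.92 ± 0.29 (adjusted p = 0.0622), and was called at -1.08 without osteosarcoma 4.

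Osteosarcoma 2 carried a signal of its own at neighbouring genes of the 9A1 region. Yap1, the Hippo pathway co-activator, had 7.83, 13.58, 7.51 and 7.45 in osteosarcoma, against 7.61, 7.38, 7.85 and 7.47 in leiomyosarcoma. Birc2, an inhibitor of apoptosis, had 9.46, 14.05, 9.03 and 9.61, against 9.74, 8.85, 9.27 and 8.71, and Birc3, its relative, 5.23, 8.35, 4.93 and 4.75, against 4.92, 4.95, 6.13 and 4.92. In all 3 genes osteosarcoma 2 was far above the other 7 tumours, which lay close together except for Birc3 in leiomyosarcoma 3. None of the 3 was called between the tumours (1.52 ± 1.10, 1.40 ± 0.87 and 0.59 ± 0.68), and Birc3 was at -0.26 without osteosarcoma 2. Among 11 genes of the region and of Yap targets, Wwtr1, the co-activator Taz, was the 1 call, at -1.15 ± 0.28 (adjusted p = 0.0209), and it ended without leiomyosarcoma 3 (-0.90) or 4 (adjusted p = 0.0526). The Yap target Ccn1 was at 8.42 in osteosarcoma 2, against 7.34 to 8.64 in the other osteosarcomas and 6.79 to 9.02 in leiomyosarcoma.

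Of 19 glucose transport and glycolysis genes, 2 were called higher and 3 lower, against 3.31% and 4.34% of all genes. Slc2a1, the glucose transporter Glut1, had 8.91, 8.97, 9.42 and 8.90 in osteosarcoma, against 11.23, 10.55, 11.46 and 12.26 in leiomyosarcoma, a fall of 2.32 ± 0.32 (adjusted p = 0.000977) with no overlap. Slc2a1 was also the 1 call among 16 hypoxia response genes. Eno2, the neuronal enolase, fell by 1.77 ± 0.37 (adjusted p = 0.011), against the rise of the muscle form Eno3 given above. Aldoc was called at 1.44 ± 0.31 and Pgam1 at -1.06 (adjusted p = 0.0113 and 0.0351), the first call ending with the block (adjusted p = 0.0925) and the second without any of 6 arrays, all but leiomyosarcomas 1 and 2 (adjusted p 0.054 to 0.0921). In limma 0 of 20 oxidative phosphorylation genes were called, with a median of 0.51, though 7, all above 0, had an unadjusted p under 0.05. Retinoic acid genes held 2 calls of 12, Crabp1 and Crabp2, with Crabp2 at -1.67 ± 0.49 (adjusted p = 0.047), which ended with the block (adjusted p = 0.0561) and without any of 6 arrays, all but osteosarcoma 3 and leiomyosarcoma 1 (adjusted p 0.0959 to 0.124). Of 11 cytoplasmic ribosomal protein genes, Rplp0 was called at -1.42 ± 0.30, and of 15 genes that respond to tissue handling, Ier3 at -1.27 ± 0.36 (adjusted p = 0.0114 and 0.0433), the call of Ier3 ending without osteosarcoma 1 or 4 or leiomyosarcoma 1, 3 or 4 (adjusted p 0.0555 to 0.11).

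**Figure D5:**
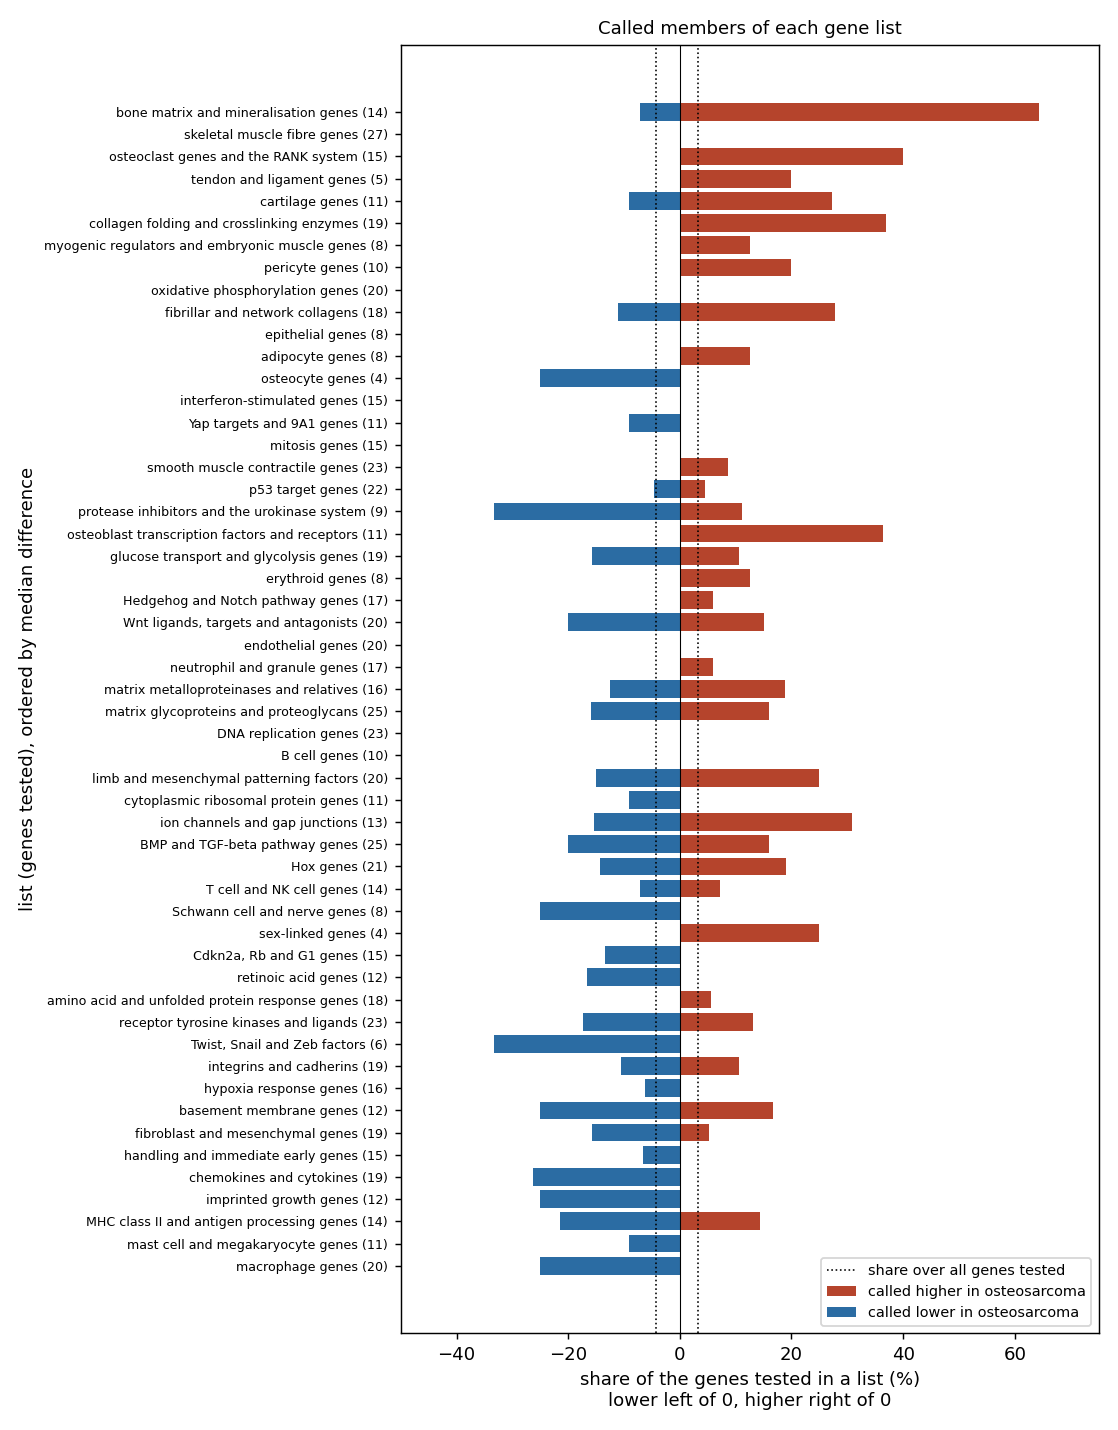
Share of the tested genes of each list (percent, horizontal axis) that were called higher in osteosarcoma (red, right of 0) and lower (blue, left of 0), with lists ordered by median difference and the number of tested genes in brackets. Dotted lines mark the shares over all genes, 3.31% higher and 4.34% lower, and bone matrix genes reach furthest to the right.

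Xist, the RNA that silences the second X chromosome in females, separated the tumours. It had 11.93, 9.53, 10.48 and 11.17 in osteosarcoma, against 4.52, 4.51, 4.62 and 4.63 in leiomyosarcoma, where it was not detected, a difference of 6.21 ± 0.91 (adjusted p = 0.00136), at least 47.4-fold. The Y-linked genes were near background in both: Kdm5d had 4.44 to 5.05 in osteosarcoma and 5.04 to 5.77 in leiomyosarcoma, and Uty 4.85 to 5.16 and 5.06 to 5.48, each detected on 0 osteosarcoma and 2 leiomyosarcoma arrays. Eif2s3y had 4.99 to 5.35 in osteosarcoma and 5.14 to 5.49 in leiomyosarcoma, was detected on 3 arrays of each tumour, and none of the 3 was called (adjusted p = 0.0827, 0.381 and 0.639). The labels give no sex, and since Xist splits the groups fully, sex and tumour type cannot be told apart in any difference given here.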

How the data were processed

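Total RNA of 12 frozen mouse tissues was measured on one-colour Illumina bead arrays, whose number limits the precision. The deposited intensity values are mean probe signals less a constant background for each array, per the file headers and the values, with no scaling between arrays. Unsubtracted intensities came in the deposited series matrix. The authors deposited a detection p-value beside each signal. Neither its computation nor the scanner software was named by the labels, which give Trizol extraction and a MessageAmp kit.

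Signals were processed with limma 3.58.1 (R 4.3.3): neqc, with offset 16 and background inferred from the detection p-values, then log2. Of 45281 probes, 34885 had 1 gene symbol, 18 several, and 10378 are unnamed here. Probes detected (p under 0.05) on at least 2 arrays were kept, and the brightest stood for its gene (4323 of 11754 genes had several). A fit of 4 group means over all 12 arrays (8 residual degrees of freedom) gave osteosarcoma minus leiomyosarcoma, two-sided. On simulated data with 11754 genes, the test found 80% of 100 genes shifted by 2 and 100% of 100 shifted by 4 on the log2 scale, with 8 false calls and 0 in the wrong direction. The simulated noise was normal, independent between genes and equal in all groups for a gene. These data differ: Bglap, for example, had an SD of 2.37 in osteosarcoma and 0.04 in leiomyosarcoma. The simulated rates therefore need not hold here. Named genes were the 12 largest called differences each way without overlap, the 4 largest called in each list together with opposite ones, and a panel of tumour and lineage genes. Further list members were named after their values were seen. The comparison, lists and rule were chosen with earlier results of these data known, so no list is independent evidence. Promoters are RefSeq's (GRCm38.p6), and 9458 of the genes tested had one. Figures used matplotlib 3.10.9 (Python 3.11.15). Alternatives covered filters, scaling, choice of probes and arrays, blocks and single replicates.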

Additional observations from a re-analysis of the deposited data

Results flagged for a closer look

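In the values below, 1 tumour lay apart from the other 3 of its kind, the gap to the nearest being above Dixon's critical value for 4 samples. Chance gives such a gap in about 1 of 20 groups, and 2 groups were looked at for each named gene and list. Signals are log2 values, with the range of the other 3 tumours in brackets.

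Osteosarcoma 2 stood apart in neighbouring genes of the 9A1 region and in bone sialoprotein: Yap1 at 13.58 (others 7.45 to 7.83), Birc2 at 14.05 (others 9.03 to 9.61), Birc3 at 8.35 (others 4.75 to 5.23), Ibsp at 9.58 (others 14.49 to 15.30) and Cd34 at 5.93 (others 7.07 to 7.13). Its mean over Twist, Snail and Zeb factors was 7.70 (8.13 to 8.17) and over retinoic acid genes 5.15 (5.55 to 5.58). Osteosarcoma 3 stood apart in Cdh15 at 8.55 (others 9.0 to 9.06), Hoxb4 at 9.09 (others 8.18 to 8.19) and Slc2a1 at 9.42 (others 8.90 to 8.97). Osteosarcoma 4 did so in Mdm2 at 9.89 (others 9.34 to 9.43), Rplp0 at 7.49 (others 8.69 to 8.81), Sp7 at 11.93 (others 12.39 to 12.45) and Tagln at 6.99 (others 4.74 to 5.08).

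Leiomyosarcoma 2 stood apart in more genes than any other tumour. It was high in cartilage and matrix genes, Acan at 6.69 (others 4.67 to 4.80), Col2a1 at 7.38 (others 4.70 to 4.94), Col22a1 at 9.61 (others 4.64 to 5.27) and Fmod at 6.41 (others 4.60 to 4.75). It was also high in Ccl2 at 10.39 (others 8.40 to 8.72), Ccl7 at 12.86 (others 10.91 to 11.24) and Hbegf at 9.90 (others 8.86 to 8.95). Car3 was at 5.17 (others 4.53 to 4.58), a gap within background, since no leiomyosarcoma array detected Car3. Leiomyosarcoma 2 had the higher value there as well. It was low in Lyz1 at 15.24 (others 15.68 to 15.75), Mrc1 at 10.28 (others 10.81 to 10.86), Nid1 at 8.38 (others 9.35 to 9.52) and Rian at 4.64 (others 6.83 to 7.26). Leiomyosarcoma 1 stood apart in Pth1r at 6.40 (others 4.79 to 4.96), Smpd3 at 7.75 (others 5.13 to 5.21) and Reck at 6.09 (others 5.52 to 5.58), and in its means over retinoic acid genes, 6.60 (6.14 to 6.17), and pericyte genes, 6.79 (6.38 to 6.44). Leiomyosarcoma 3 stood apart in Acp5 at 5.11 (others 4.67 to 4.73), Birc3 at 6.13 (others 4.92 to 4.95) and Tnn at 5.99 (others 4.50 to 4.68). The gap in Acp5 also lies within background, as no leiomyosarcoma array detected that gene. Leiomyosarcoma 4 stood apart in Bmp3 at 6.19 (others 4.78 to 4.99) and Rb1 at 7.69 (others 8.31 to 8.44), and in its mean over erythroid genes, 7.47 (6.18 to 6.39).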

How the results depend on the processing

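The counts were 389 genes higher and 510 lower in osteosarcoma. They fell to 213 and 295 with unsubtracted, quantile-normalised values, and to 202 and 322 within the high-background arrays. Leaving out 1 replicate gave 289 to 473 higher and 385 to 532 lower, with 289 without leiomyosarcoma 3 and 473 without osteosarcoma 2. The other settings moved neither count by over 1.5 times, among them leaving out leiomyosarcomas 1 and 2 with the spread of the other 10 arrays, an alternative chosen after seeing the data (282 and 436). Leaving out osteosarcoma 2 moved the share of calls that were higher to 50.27%, against 43.27% over all arrays. No gene was called in the opposite direction under any alternative run, and 0 of 165 called named genes reversed. Of these, 117 held their call without any 1 array, 118 with the background block and 96 within the high-background arrays. The block, the high-background arrays and the fit without leiomyosarcomas 1 and 2 give the same differences, and vary only in the spread used. With the replicate number as a block 295 genes were called higher and 379 lower, and 126 of the 165 held. The replicate numbers follow the order of the samples, and no label pairs an osteosarcoma with a leiomyosarcoma. Same-numbered tumours correlated at -0.079 to 0.082 in their deviations, and differently numbered ones at -0.093 to 0.109. These values cannot decide whether any samples were paired. The cause of these moves was not tested. Genes near background have only bounds, and 313 of the genes tested were not detected on any tumour array.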
